A study of Arabidopsis thaliana with 9 samples.

Results

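Messenger RNA from rosette leaves taken 1 h after a salt shock was compared with that from untreated control leaves. The comparison covers every gene whose normalised count had a mean of at least 10 over the 9 libraries of the series. These are 18650 of the 21176 genes in the deposited table, read in 6 of the 9 libraries.

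All plants were Arabidopsis thaliana of the wild-type accession Col-0, 5 weeks old and grown in hydroponic culture. The control group (3 libraries) received no added salt, and the Phase 0 group (3 libraries) was harvested 1 h after a shock with 105 mM NaCl. The third group, Phase 1 (3 libraries), had its salt raised in daily steps of 15 mM to 90 mM and was harvested 2 days later. Phase 1 enters here only through the estimate of the spread and as levels set beside those of Phase 0. The labels do not say whether replicates are separate plants or pools, so p-values measure the spread between these samples, which may be technical.

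Salt added to the roots lowers the water potential around them and later loads the leaf with sodium. An early signal in the leaf is abscisic acid (ABA). ABA binds receptors of the PYR/PYL/RCAR family, the occupied receptors block clade A protein phosphatases 2C, and kinases of the SnRK2 family, which these phosphatases otherwise keep inactive, then phosphorylate ABF transcription factors. ABF factors bind ABA-responsive elements in the promoters of dehydration genes. Leaf cells grow by loosening walls of cellulose, xyloglucan and pectin and by taking up water through aquaporins.

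Totals of normalised counts ran from 24136851 to 27820610 in the 6 libraries. In 5 of them the spacing of the low values showed the reads behind them, 19836334 to 21769657 a library, with 3 reads worth 3.56 to 3.97 normalised counts, a floor that covers counting error only. In Phase 0 replicate 3 the spacing was too faint to settle this number. The first principal component of the 6 libraries (40.3% of the variance) parted control from Phase 0, and Control replicate 1 stood apart from the other controls on the next (31.9%), at 49.4 against -41.2 and -25.2. Phase 0 replicate 2 also held the most organelle-encoded transcripts, 0.605% of its total against 0.041% to 0.053% elsewhere. In bulk leaf RNA, fewer cells of a type and less RNA per cell cannot be told apart. Of 10 seed storage and maturation markers none is in the table, and 1 of 7 flower markers was, AGAMOUS at 16 to 37 normalised counts. Of 10 root markers 4 are in the table, and the endodermal CASP1 was at 0 to 2. The summed level of the root list was 987 to 1016 in control and 826 to 888 in Phase 0. Its 2 tested members were both lower in Phase 0 without overlap, with log2 fold changes of -0.33 and -0.17. None of the 28 tested markers of guard cells, phloem, xylem, epidermis, root and flower passed the limma test, and 1 had an unadjusted p under 0.05.

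Large rises after 1 h of salt included those of DIP2, PUB19 and the ABA phosphatase gene HAI1, and large falls those of the transcription factors BZIP61 and MYB70 and the wall enzyme gene TCH4. With limma and Benjamini-Hochberg adjustment over all genes tested, 547 genes passed an adjusted p of 0.05, which is 2.93% of those tested. Of these, 238 rose (1.28%) and 309 fell (1.66%), and 318 changed by at least 1 on the log2 scale (148 rose, 170 fell). The median log2 fold change was 1.16 among genes that rose, -1.09 among those that fell and 0.01 over all genes. In 23.2% of all genes tested, 4321 of them, the 3 Phase 0 values lay wholly above or below the 3 control values, as they did in all 547 that passed. When the values were rescaled to equal nuclear totals, the median of all genes became 0.10 and the split became 373 higher and 195 lower.

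**Figure D1:**
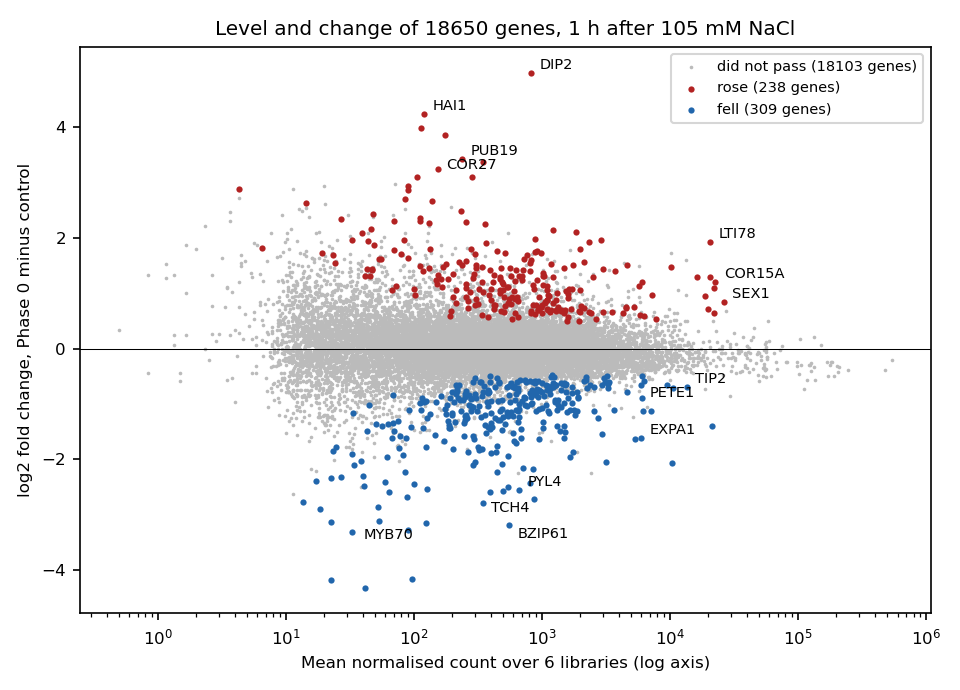
Each point is a gene; the x axis is its mean normalised count over the 6 control and Phase 0 libraries (log axis) and the y axis its log2 fold change, Phase 0 minus control, with genes at an adjusted p under 0.05 in colour. The 238 genes that rose and the 309 that fell spread over low and high levels, and DIP2 at 4.97 is the highest among labelled genes.

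How many genes passed changed with the libraries in the fit. Leaving out Phase 0 replicate 3, Control replicate 3 or Phase 0 replicate 2 gave 118, 172 or 183 calls, and leaving out Phase 0 replicate 1 or Control replicate 2 gave 364 or 885. Of the 547 genes, 109 (47 that rose and 62 that fell) passed in each of the 9 fits that left out 1 library. A call is said below to hold where the gene is among these 109, and for most other named genes the highest adjusted p of the 9 fits is given. Counts of calls in each gene list below stand beside 1.28% of all genes tested that rose and 1.66% that fell.

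**Figure D2:**
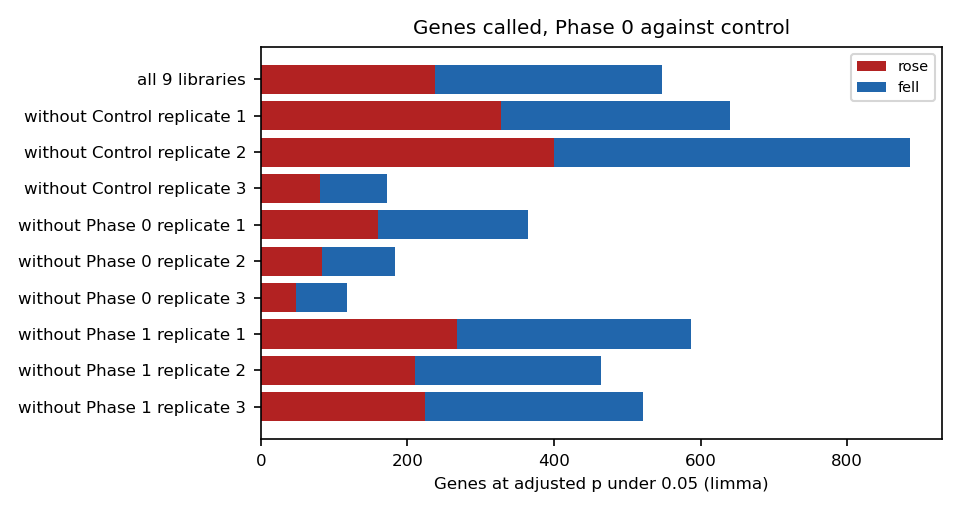
Bars give the number of genes at an adjusted p under 0.05 with all 9 libraries and with each library left out of the fit, split into genes that rose and fell. The count runs from 118 without Phase 0 replicate 3 to 885 without Control replicate 2.

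Large rises included DIP2 and 2 genes from the list of ubiquitin ligases of ABA and drought signalling. The annotation names DIP2 an E3 ubiquitin-protein ligase, a role that was not tested here. DIP2 was at 188, 49 and 10 normalised counts in the controls and 920, 1679 and 2077 in Phase 0. Its log2 fold change was 4.97 (SE 0.87, adjusted p = 0.016), and the adjusted p was 0.0856 without Phase 0 replicate 3. The groups did not overlap, but the controls spread widely. PUB19, a U-box ubiquitin ligase of drought signalling, was at 78, 31 and 23 against 326, 366 and 604 (log2 fold change 3.41, SE 0.47, adjusted p = 0.00563). EDL3, an F-box protein of ABA signalling, rose from 24, 20 and 18 to 146, 159 and 266 (log2 fold change 3.10, SE 0.38, adjusted p = 0.00298). The calls of PUB19 and EDL3 held. Of 10 tested genes in their list 2 rose and 1 fell, with a median of 0.29. The one that fell was PUB22, from 38, 18 and 17 to 1, 2 and 6, a few reads (limma adjusted p = 0.0335, or 0.115 without Phase 0 replicate 2). Of 467 tested genes with F-box, U-box or RING product names, 5 rose (1.07%) and 4 fell (0.857%), beside 1.28% and 1.66% of all genes tested.

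Among transcription factors, the steepest rise was in AT4G28140, which has an AP2/ERF (Integrase-type) DNA-binding domain. It was at 20, 9 and 11 in control and 212, 196 and 230 in Phase 0, 15.7-fold higher from the fit (log2 fold change 3.97, SE 0.34, adjusted p = 0.00109). ERF53, a drought factor of the same DREB A-6 subgroup, was at 25, 14 and 26 against 155, 148 and 170 (log2 fold change 2.85, SE 0.28, adjusted p = 0.00146). Both calls held, and the Phase 1 means, 9.0 and 22.7, lay near the controls. DREB1A (CBF3), a cold-response factor, rose from 266, 275 and 269 to 753, 512 and 756 (log2 fold change 1.29, SE 0.19, adjusted p = 0.00754), with an adjusted p of 0.0574 without Phase 0 replicate 3. CBF1, at 128, 46 and 30 against 74, 36 and 48, and CBF2, at 506, 105 and 94 against 123, 78 and 115, did not pass (adjusted p = 0.917 and 0.504), and in both Control replicate 1 was the highest library. These 3 CBF genes are close copies, so how reads were shared among them is uncertain. Of 13 tested CBF, DREB2 and A-6 genes 3 rose and 1 fell (AT1G64380), with a median of 0.16. The count of 4 was 2 without Phase 0 replicate 3.

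Other large rises lay in wax, sugar and defence chemistry. WSD1, a wax ester synthase of the cuticle, was at 13, 32 and 17 in control and 96, 185 and 198 in Phase 0 (log2 fold change 2.92, SE 0.38, adjusted p = 0.00449). FMO GS-OX2, which oxidises the side chains of methionine-derived glucosinolates, was at 42, 89 and 90 against 324, 350 and 520 (log2 fold change 2.47, SE 0.37, adjusted p = 0.00754). Both calls held. GolS2, which makes galactinol for raffinose sugars under drought, was at 661, 347 and 359 against 1510, 2849 and 1626 (log2 fold change 2.13, SE 0.38, adjusted p = 0.0179), with an adjusted p of 0.0796 without Control replicate 3. CSLA01, a glucomannan synthase-like gene, was at 12, 32 and 20 against 73, 139 and 240 (log2 fold change 2.7, SE 0.56, adjusted p = 0.032), and its adjusted p reached 0.141 without Phase 0 replicate 3. Its mean in Phase 1 was 9405 normalised counts.

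Several transcription factors were among the genes that fell most. BZIP61 fell from 640, 1371 and 993 to 167, 76 and 87 (log2 fold change -3.19, SE 0.73, adjusted p = 0.0465), and without Phase 0 replicate 3 its adjusted p was 0.175. BZIP34, a bZIP factor of the same group, fell from 469, 1029 and 906 to 230, 124 and 196 (log2 fold change -2.09, SE 0.38, adjusted p = 0.0194), with 0.0842 without Control replicate 3. In both, Control replicate 1 was the lowest control. MYB70, of the MYB44 subgroup of stress and auxin factors, fell from 276, 198 and 195 to 29, 28 and 17 (log2 fold change -3.14, SE 0.29, adjusted p = 0.0012), and its call held. MYB77, of the same subgroup, fell from 534, 501 and 313 to 129, 132 and 160 (log2 fold change -1.64, SE 0.28, adjusted p = 0.0133), with an adjusted p of 0.0581 without Phase 0 replicate 2. PATL2, a phospholipid-binding patellin, fell from 707, 967 and 867 to 156, 127 and 144 (log2 fold change -2.56, SE 0.22, adjusted p = 0.00109), and its call held. HAT1, an HD-Zip class II factor of shade and auxin responses, fell from 571, 606 and 684 to 262, 116 and 150 (log2 fold change -1.89, SE 0.41, adjusted p = 0.0367), with 0.152 without Phase 0 replicate 3.

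The letters of 3 motifs, the ABA-responsive element core among them, were sought upstream of 6 genes. These were the top 3 risers and top 3 fallers among loci with a gene symbol whose higher group averaged 100 or more. The 125 bases before their annotated starts follow, 5′ to 3′ on the strand of the gene, from the RefSeq assembly TAIR10.1. Capitals mark the ABA-responsive element core ACGTGNC on either strand, the G-box CACGTG and the evening element AAAATATCT on either strand, which may overlap. The first 3 sequences are those of the genes that rose.
DIP2: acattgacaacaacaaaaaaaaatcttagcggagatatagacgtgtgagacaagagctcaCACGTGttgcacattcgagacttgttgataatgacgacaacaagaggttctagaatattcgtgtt
HAI1: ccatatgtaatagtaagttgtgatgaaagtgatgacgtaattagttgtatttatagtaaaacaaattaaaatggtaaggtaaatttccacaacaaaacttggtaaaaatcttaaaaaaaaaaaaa
PUB19: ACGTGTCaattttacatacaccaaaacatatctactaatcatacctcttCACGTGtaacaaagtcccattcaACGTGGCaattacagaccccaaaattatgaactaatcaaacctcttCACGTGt
BZIP61: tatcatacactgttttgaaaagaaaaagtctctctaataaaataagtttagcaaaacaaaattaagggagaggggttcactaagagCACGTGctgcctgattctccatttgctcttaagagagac
MYB70: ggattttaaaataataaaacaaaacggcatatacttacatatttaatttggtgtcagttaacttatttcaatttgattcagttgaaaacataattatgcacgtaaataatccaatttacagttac
TCH4: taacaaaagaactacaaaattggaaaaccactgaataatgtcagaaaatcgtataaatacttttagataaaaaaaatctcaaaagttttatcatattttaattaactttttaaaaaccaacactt
PUB19 carries 2 cores and 2 G-boxes in these bases, DIP2 1 G-box and no core, and HAI1 none of the 3 motifs. Among the falls BZIP61 has 1 G-box, and MYB70 and TCH4 have none of the 3. No match says only that these letters are not in this window.

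Over all genes with 250 upstream bases (18558), the core ACGTGNC stood in 9.61%, against 22.7% of the 238 genes that rose and 6.15% of the 309 that fell. The evening element AAAATATCT stood in 2.54%, 9.24% and 3.24%, CACGTG in 7.46%, 16.8% and 7.12%, and the core CCGAC of the dehydration-responsive element in 13.1%, 21.4% and 12.6%. Some motifs were less frequent in both sets of called genes. GGCCCA, common before genes of protein synthesis, stood in 17.2% of all promoters, 6.30% of those that rose and 7.77% of those that fell, and the telo box AAACCCTA in 3.70%, 1.26% and 2.59%. All 6 motifs were searched on both strands, were chosen with earlier results known, and are given as shares without a test.

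A further promoter, picked after its values and letters had been seen, shows the cores in a gene that rose. PP2CA, a clade A phosphatase, is shown over 250 bases and holds 3 ABA-responsive cores.
PP2CA: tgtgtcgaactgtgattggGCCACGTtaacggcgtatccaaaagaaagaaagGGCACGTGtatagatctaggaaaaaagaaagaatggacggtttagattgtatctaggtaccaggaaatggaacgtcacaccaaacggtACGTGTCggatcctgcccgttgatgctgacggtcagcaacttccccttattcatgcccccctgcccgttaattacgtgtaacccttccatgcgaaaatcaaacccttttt

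The core of ABA signalling changed on both sides: the phosphatases in the table rose and 5 of 9 receptors fell. All 7 clade A phosphatases in the table rose, with a median log2 fold change of 1.62 against 0.01 over all genes. Of 9 receptors 5 fell, with a median of -1.24. None of the 9 tested SnRK2 kinases passed in limma (2 had an unadjusted p under 0.05), and 5 of 8 tested ABF and AFP genes rose. The list of phosphatases kept at least 6 calls with any library left out, the receptors at least 2 and the ABF and AFP genes 0, both without Control replicate 3.

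Among the phosphatases, the brakes of the pathway, HAI1 rose most. It was at 16, 4 and 20 in control and 223, 218 and 238 in Phase 0, 18.7-fold higher (log2 fold change 4.23, SE 0.60, adjusted p = 0.00629), although Control replicate 2 rests on a few reads. HAI2 rose from 81, 53 and 48 to 533, 477 and 526 (log2 fold change 3.09, SE 0.28, adjusted p = 0.00109). PP2CA rose from 879, 1063 and 972 to 3840, 3383 and 3789 (log2 fold change 1.92, SE 0.19, adjusted p = 0.00146). Phase 0 replicates of these 3 genes lay close together and far from the controls. HAB1 rose by 1.62, ABI2 by 1.45 and ABI1 by 1.29 on the log2 scale (adjusted p = 0.00358, 0.00501 and 0.00475), and these 6 calls held. HAB2 changed least, from 968, 1157 and 1117 to 1555, 1925 and 1734 (log2 fold change 0.68, adjusted p = 0.0441). Its adjusted p was 0.179 without Phase 0 replicate 2.

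Among the receptors, PYL4 fell from 1590, 826 and 1024 to 210, 164 and 193 (log2 fold change -2.55, SE 0.26, adjusted p = 0.00167). PYL1 fell from 810, 573 and 715 to 348, 254 and 286 (log2 fold change -1.24, adjusted p = 0.00475). Both calls held. PYL5 fell from 143, 56 and 101 to 29, 9 and 18 (log2 fold change -2.40, adjusted p = 0.0183), PYL2 from 66, 69 and 55 to 19, 20 and 28 (log2 fold change -1.48, adjusted p = 0.0197), and PYL6 from 28, 23 and 48 to 6, 1 and 5, a few reads (log2 fold change -2.89, adjusted p = 0.0353). Their highest adjusted p values were 0.0807 without Phase 0 replicate 3, 0.0802 without Phase 0 replicate 2 and 0.153 without Control replicate 3. PYR1, at 1450, 748 and 988 against 649, 532 and 553, missed the threshold (adjusted p = 0.0645). RCAR1 lay on the other side, at 313, 243 and 334 against 472, 463 and 393, without passing (adjusted p = 0.145).

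The ABA-activated kinases showed little movement: OST1 (SnRK2.6), the main kinase of guard cells, was at 416, 351 and 327 against 427, 345 and 380 (log2 fold change 0.08, adjusted p = 0.808). SNRK2.2 and SNRK2.3 were at -0.04 and 0.00 (adjusted p = 0.908 and 0.995). Downstream, AFP1 and AFP3, which bind and restrain ABI5, rose by 2.65 and 1.76 (adjusted p = 0.0165 and 0.0122), ABI5 by 1.43 (0.0237), ABF3 by 1.08 (0.0186) and ABF2 by 0.70 (0.0267). AFP3 was at 464, 385 and 395 against 1342, 1280 and 1615. None of these calls held, and the highest adjusted p values of AFP1, AFP3, ABI5 and ABF3 without Phase 0 replicate 3 were 0.0856, 0.0708, 0.117 and 0.0862. NCED3, the stress-induced enzyme that cleaves carotenoids for ABA synthesis, rose from 106, 159 and 115 to 447, 400 and 454 (log2 fold change 1.79, SE 0.29, adjusted p = 0.0122; 0.0675 once Phase 0 replicate 3 was dropped). It was the only one of 11 tested genes of ABA synthesis and catabolism that passed.

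**Figure D3:**
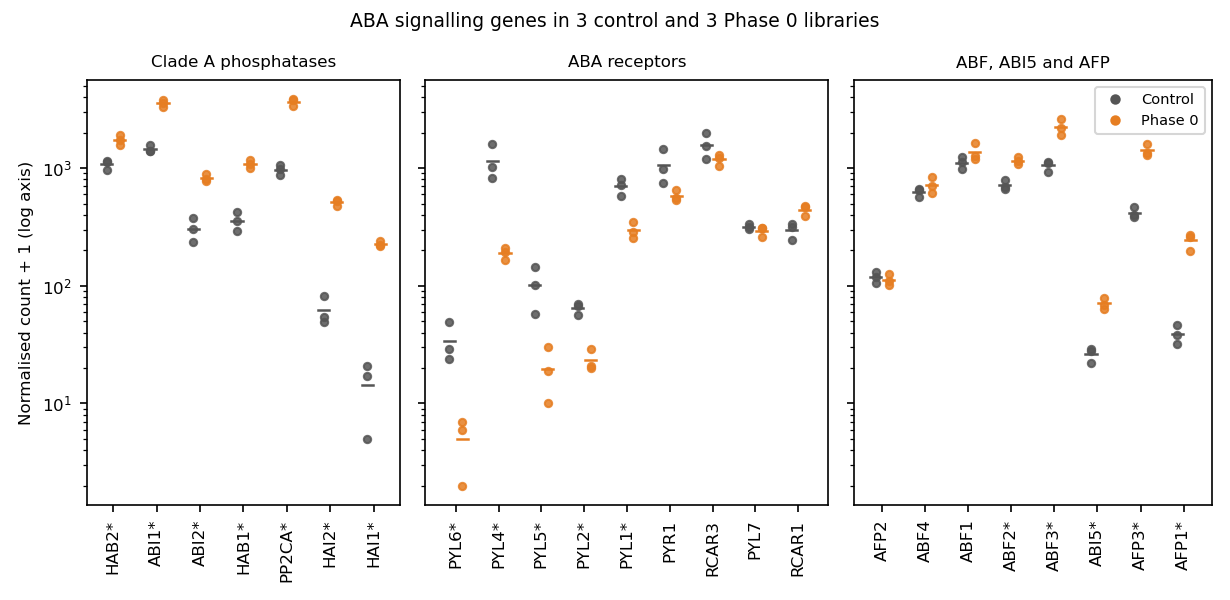
Normalised counts plus 1 (log axis) of clade A phosphatases, ABA receptors, and ABF, ABI5 and AFP genes in each of 3 control and 3 Phase 0 libraries; short lines are means and asterisks mark genes at an adjusted p under 0.05. All 7 phosphatases lie above their controls, and PYL6, PYL4, PYL5, PYL2 and PYL1 below.

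Dehydration and cold genes, some of them known targets of ABF and CBF factors, rose in part. Among them LTI78 and COR15A gave the 2 largest gains in normalised counts of the genes that passed. Of 13 RD29, COR and KIN genes, 6 rose and none fell, with a median of 1.19. The count was 2 without Control replicate 3. LTI78 (RD29A), a hydrophilic protein of unknown biochemical role, was at 8023, 12369 and 6356 in control and 30603, 34821 and 32164 in Phase 0 (log2 fold change 1.92, SE 0.27, adjusted p = 0.00592). COR27, a cold-regulated repressor in the clock and light pathways, was at 30, 25 and 31 against 273, 246 and 316 (log2 fold change 3.23, SE 0.29, adjusted p = 0.00109). Both calls held, and neither pair of groups came near to overlapping. COR27 and its relative AT4G33980 (COR28), which rose by 2.26 on the log2 scale (adjusted p = 0.021), were at means of 8.67 and 0.333 in Phase 1.

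The same list held genes of smaller change. COR15A, which protects chloroplast membranes, was at 11269, 16775 and 13686 against 30932, 28987 and 34478 (log2 fold change 1.19, adjusted p = 0.0327), with an adjusted p of 0.144 without Phase 0 replicate 3. KIN2 was at 13745, 16960 and 11908 against 28884, 31299 and 29781 (log2 fold change 1.09, adjusted p = 0.0311; with Phase 0 replicate 3 left out, 0.121). RD20, a caleosin of lipid droplets, rose by 2.1 on the log2 scale (adjusted p = 0.0236; 0.118 once Phase 0 replicate 3 was dropped). LTI65 (RD29B), KIN1 and COR15B did not pass, with log2 fold changes of 1.83, 1.92 and 1.05 (adjusted p = 0.0654, 0.17 and 0.102). They were higher without overlap, but 23.2% of all genes tested did not overlap in one direction or the other. Of 6 tested dehydrins, which are water-binding protective proteins, only ERD10 rose, from 11106, 10966 and 6708 to 22236, 23362 and 23196 (log2 fold change 1.29, adjusted p = 0.0133; with Phase 0 replicate 3 left out, 0.0708). COR47, ERD14 and LTI30 were also higher without overlap but did not pass, at 0.58, 0.5 and 1.24 (adjusted p = 0.242, 0.206 and 0.303). RAB18, a dehydrin used as an ABA marker, was at 827, 527 and 425 against 358, 434 and 527 and did not pass (adjusted p = 0.469). AT1G54410, at -0.15, did not pass either (adjusted p = 0.719), and the list median was 0.54.

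Other stress regulators and protective enzymes were mixed. Of 11 tested stress NAC factors 3 rose, NAC019 by 2.28, RD26 by 1.75 and ATAF1 by 1.2 on the log2 scale (adjusted p = 0.0205, 0.0129 and 0.025). Without Phase 0 replicate 3 these values became 0.082, 0.0662 and 0.121, and no member of the list passed without Control replicate 3. HB-12, an ABA-responsive HD-Zip factor, rose from 268, 198 and 257 to 779, 770 and 824 (log2 fold change 1.72, adjusted p = 0.00894; 0.0531 once Phase 0 replicate 3 was dropped). P5CS1, the enzyme that limits proline synthesis, rose from 4501, 5730 and 6206 to 15210, 15057 and 14922 (log2 fold change 1.47, adjusted p = 0.0136; with Phase 0 replicate 3 left out, 0.0675). ERD5, the proline dehydrogenase that breaks proline down, fell from 91, 136 and 169 to 50, 36 and 38 (log2 fold change -1.62, adjusted p = 0.0184; 0.095 once Phase 0 replicate 3 was dropped). These were the 2 calls among 10 tested proline genes, and none was made without Phase 0 replicate 2. AT5G38710, a second proline dehydrogenase gene, was at 114, 43 and 62 against 94, 143 and 107 and did not pass. No member passed among 18 WRKY factors, 9 ZAT and AZF zinc fingers, 15 antioxidant enzymes and 15 heat shock genes, with medians of 0.05, 0.05, 0.01 and 0.52. At an unadjusted p under 0.05 in limma the counts were 7, 1, 0 and 5.

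Among the gene lists, those of xyloglucan enzymes and arabinogalactan proteins held the most genes that fell. Of 18 tested xyloglucan endotransglucosylases (XTH), which cut and rejoin xyloglucan chains in growing walls, 10 fell and none rose, with a median of -1.48. Of 19 tested arabinogalactan protein genes, which encode glycoproteins of the cell surface, 10 fell and none rose, with a median of -0.93. The counts were 4 and 6 without Control replicate 3. Rescaling to nuclear totals gave medians of -1.39 and -0.83 with 8 and 9 calls.

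XTH6 fell from 588, 1335 and 867 to 156, 180 and 134 (log2 fold change -2.49, SE 0.28, adjusted p = 0.00214). EXGT-A3 (XTH27) fell from 1969, 1920 and 2215 to 837, 633 and 726 (log2 fold change -1.48, adjusted p = 0.00148). Both calls held, as did that of XTH9, a gene of shoot tips and veins (log2 fold change -1.87, adjusted p = 0.00993). TCH4 (XTH22), a gene induced by touch, was at 788, 845 and 222 in control and 82, 53 and 100 in Phase 0 (log2 fold change -2.79, SE 0.46, adjusted p = 0.0127; with Phase 0 replicate 2 left out, 0.0581). Control replicate 3 lay well below the others yet above every Phase 0 library. XTH25 fell from 74, 96 and 64 to 5, 9 and 0, and XTH33 from 40, 53 and 31 to 11, 0 and 0 (adjusted p = 0.0163 and 0.0403; at worst 0.0614 without Control replicate 3 and 0.162 without Phase 0 replicate 3). Their Phase 0 levels are a few reads, so no fold is given for either. XTH31, at 1117, 2020 and 2060 against 2795, 2235 and 2885, was the one member with higher values (adjusted p = 0.284).

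Among arabinogalactan proteins, FLA9, a fasciclin-like member, fell from 1504, 1357 and 1251 to 246, 232 and 290 (log2 fold change -2.42, SE 0.16, adjusted p = 0.000362). AGP17, a lysine-rich member, fell from 1125, 1963 and 1424 to 264, 188 and 221 (log2 fold change -2.72, SE 0.21, adjusted p = 0.000944). AGP16 fell from 2230, 3261 and 2436 to 633, 797 and 607 (log2 fold change -1.95, SE 0.20, adjusted p = 0.0017). In each the lowest control was more than every Phase 0 library by a wide margin, and the 3 calls held, as did those of AGP12, FLA2 and FLA13 at -1.66, -1.61 and -0.93. AGP1, AGP2, AGP4, AGP5, AGP24 and FLA1 overlapped between groups.

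**Figure D4:**
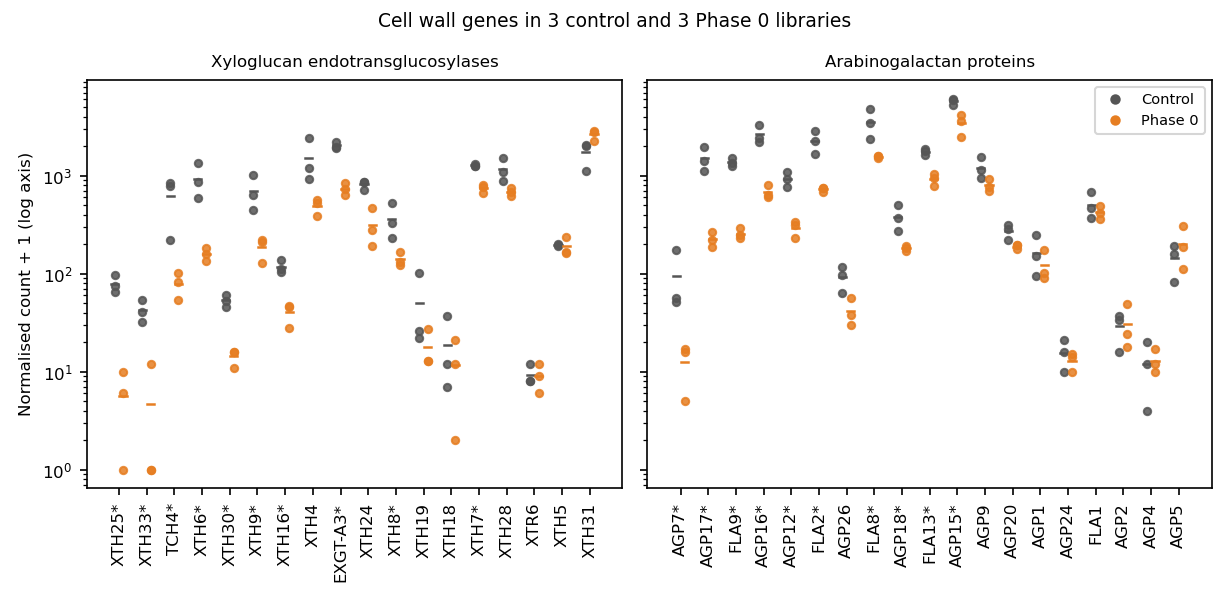
Normalised counts plus 1 (log axis) of 18 xyloglucan endotransglucosylase and 19 arabinogalactan protein genes in each of 3 control and 3 Phase 0 libraries; short lines are means and asterisks mark genes at an adjusted p under 0.05. Genes are ordered by log2 fold change with the lowest on the left, and 10 genes in each panel carry an asterisk.

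A few growth-hormone outputs and 1 expansin fell, while most members of these lists did not pass. Of 21 tested brassinosteroid genes 4 fell, all of the EXORDIUM family of wall proteins that brassinosteroids induce. EXO fell from 239, 281 and 139 to 37, 32 and 38 (log2 fold change -2.53, SE 0.28, adjusted p = 0.00209), EXL5 fell by 1.71 and EXL3 fell by 1.45 on the log2 scale (adjusted p = 0.00328 and 0.00467), and these 3 calls held. PHI-1 fell from 96, 72 and 16 to 5, 2 and 6 (adjusted p = 0.0255; 0.103 once Phase 0 replicate 2 was dropped). The hormone's synthesis and receptor genes did not pass, with BRI1, the receptor, at -0.52 (adjusted p = 0.203) and DWF1 at -0.79 (0.0641). Of 23 tested Aux/IAA genes, auxin-induced repressors, IAA19 fell from 562, 612 and 491 to 243, 190 and 190 (log2 fold change -1.42, adjusted p = 0.00387), a call that held, and IAA2 fell by 0.96 on the log2 scale (adjusted p = 0.013; with Phase 0 replicate 3 left out, 0.0675). Of 16 tested expansins, which loosen walls, EXPA1 alone fell, from 12341, 5812 and 9152 to 3593, 2729 and 2336 (log2 fold change -1.61, adjusted p = 0.0488; 0.192 once Phase 0 replicate 3 was dropped). EXPA16 ran the other way without passing, at 46, 78 and 39 against 231, 246 and 522 (adjusted p = 0.0565). ATGA2OX1, which inactivates gibberellins, rose from 15, 39 and 52 to 103, 95 and 197 (log2 fold change 1.95, adjusted p = 0.0403; with Phase 0 replicate 3 left out, 0.177). It was the only call among 16 tested genes of the gibberellin list, whose median was 0.16. In that list 5 members were lower and 2 higher without overlap. Its summed level was 10344 to 12297 in control and 6092 to 7332 in Phase 0.

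**Figure D5:**
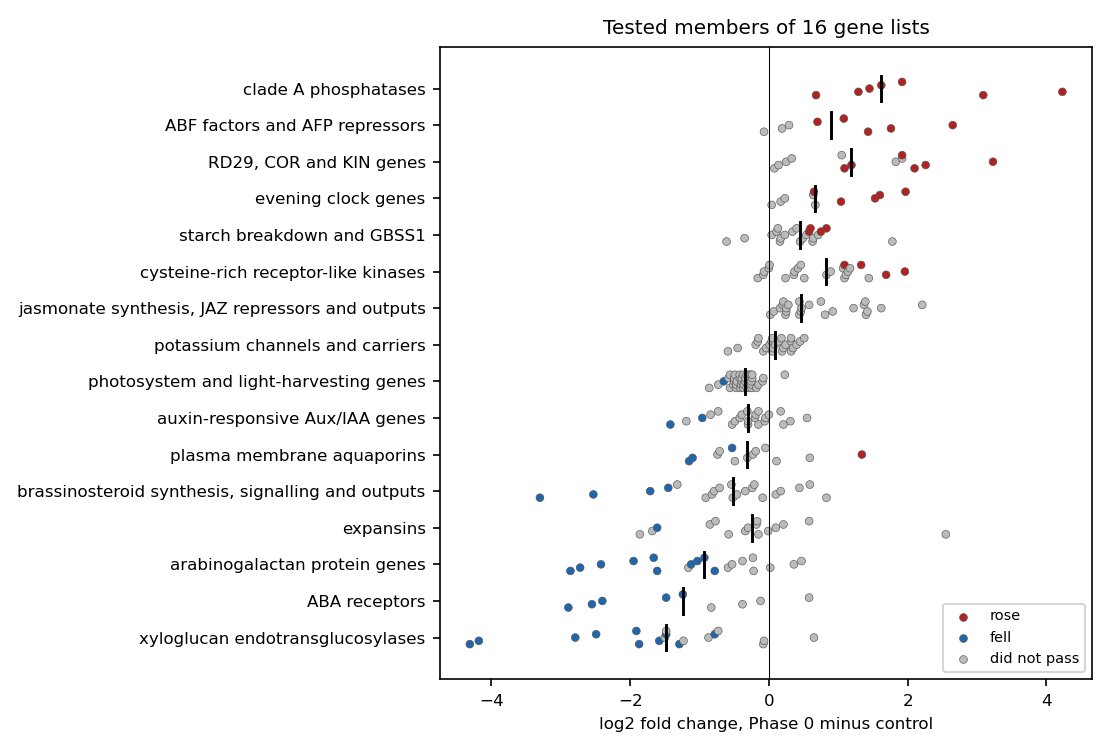
Points are the tested members of 16 gene lists, placed by log2 fold change, Phase 0 minus control; colour marks genes at an adjusted p under 0.05 and black lines are medians. Clade A phosphatases lie highest with a median of 1.62 and xyloglucan endotransglucosylases lowest with -1.48.

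Water channels and ion carriers gave smaller and mixed changes. Of 5 tested vacuolar aquaporins 3 fell, and of 13 plasma membrane aquaporins 3 fell and 1 rose. DELTA-TIP (TIP2;1) fell from 4466, 5442 and 5412 to 1639, 985 and 1167 (log2 fold change -2.04, SE 0.27, adjusted p = 0.00468). PIP3 (PIP2;7) fell from 1983, 2349 and 2189 to 1050, 873 and 1013 (log2 fold change -1.15, SE 0.15, adjusted p = 0.00369). Both calls held. TIP2 (TIP1;2) fell by 0.69 and GAMMA-TIP (TIP1;1) fell by 0.61 on the log2 scale (adjusted p = 0.0389 and 0.0462; 0.16 and 0.19 without Phase 0 replicate 2), while TIP2;2 overlapped between groups. PIP1;5 fell by 1.1 and PIP1;4 fell by 0.53 on the log2 scale (adjusted p = 0.0121 and 0.0357; 0.0716 without Phase 0 replicate 3 and 0.16 without Phase 0 replicate 2). RD28 (PIP2;3) rose from 186, 161 and 152 to 434, 328 and 520 (log2 fold change 1.34, adjusted p = 0.0127; 0.0713 once Phase 0 replicate 3 was dropped). RD28 is nearly identical to PIP2B (PIP2;2), which was at 1598, 871 and 920 against 1225, 1097 and 1200, so the split of reads between them is uncertain. The counts of the vacuolar and plasma membrane lists were 1 without Control replicate 1 and 1 without Phase 0 replicate 3.

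Of 10 tested genes of the SOS pathway, HKT1 and the NHX exchangers, the vacuolar exchangers NHX2 and NHX3 rose. The list median was 0.19, and the count of 2 was 0 without Phase 0 replicate 3. NHX1 and NHX4 did not pass, with log2 fold changes of 0.13 and -0.37 (limma adjusted p = 0.593 and 0.595). NHX2 was at 883, 1398 and 1058 against 2459, 2011 and 2480 (log2 fold change 1.08, adjusted p = 0.00894; with Phase 0 replicate 3 left out, 0.0583), and NHX3 at 52, 65 and 76 against 148, 144 and 116 (log2 fold change 1.08, adjusted p = 0.0165; 0.0778 once Phase 0 replicate 2 was dropped). SOS1, the plasma membrane sodium exporter, was at 297, 458 and 392 against 513, 605 and 524 without passing (adjusted p = 0.118). HKT1, which retrieves sodium from the xylem, was at 5, 11 and 11 against 9, 7 and 12, too few reads to show a change. None of 25 potassium channels and carriers (median 0.09) or 13 proton pump genes (median 0.10) passed in limma, with 1 and 2 at an unadjusted p under 0.05. ACA8, a calcium pump of the plasma membrane, rose from 845, 1077 and 784 to 3077, 2940 and 3291 (log2 fold change 1.79, SE 0.16, adjusted p = 0.00109), and its call held. It was the only one of 12 calcium pumps and exchangers to pass, and its Phase 1 mean was 131. CAX3, a vacuolar calcium exchanger, was at 3657, 84 and 279 against 320, 1320 and 457, with Control replicate 1 far above all others.

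Several genes of the evening phase of the circadian clock rose, and the morning oscillator genes CCA1 and LHY did not pass. Of 10 tested evening genes 5 rose and none fell, beside 1.28% and 1.66% of all genes tested. The list median was 0.66, and the count was 2 without Control replicate 3. FKF1, a blue-light receptor of flowering time, rose from 336, 390 and 361 to 1453, 1302 and 1511 (log2 fold change 1.97, SE 0.25, adjusted p = 0.00412). TOC1, the central evening repressor, rose from 937, 1086 and 1005 to 2096, 2037 and 2072 (log2 fold change 1.04, SE 0.15, adjusted p = 0.00754). Both calls held, and the replicates of each group were tight. PRR3, ELF4 and GI rose by 1.60, 1.53 and 0.65 (adjusted p = 0.029, 0.0336 and 0.038, and 0.124, 0.168 and 0.157 without Phase 0 replicate 3). CCA1 was at 604, 714 and 945 against 748, 708 and 756, and LHY at 100, 95 and 96 against 56, 117 and 64 (adjusted p = 0.986 and 0.461), so that both overlapped. In Phase 1 the means of FKF1, PRR3 and ELF4 were 10.3, 15.0 and 7.33. The labels give no hour of harvest for any group, so the part of the time of day in these values was not tested.

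Of 15 tested morning and day clock genes 1 rose and 2 fell, and of 16 tested BBX and CONSTANS-like light factors 2 rose and 1 fell. STH, a B-box protein related to the salt tolerance protein STO, fell from 895, 704 and 908 to 395, 324 and 355 (log2 fold change -1.22, SE 0.14, adjusted p = 0.00214), and AT5G06980 (LNK4), a relative of the clock coactivator genes LNK1 and LNK2, from 1010, 787 and 939 to 445, 404 and 431 (log2 fold change -1.09, SE 0.12, adjusted p = 0.00195). Both calls held. COL9 and BBX8, B-box genes with a CCT domain, rose by 1.56 and 1.03 (adjusted p = 0.0449 and 0.0169; 0.159 and 0.101 without Phase 0 replicate 3). BBX8 has 3 evening elements in its 250 upstream bases, the most of any named gene, while COL9, STH and AT5G06980 have none. FKF1 and TOC1 have 1 each, and PRR3 and ELF4 have none. Over all genes with these bases, 2.54% hold the element. Whether it bears on these changes was not tested.

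In carbon metabolism some starch-degrading enzymes rose. Of 21 tested genes 4 rose and none fell, with a median of 0.45. SEX1, the glucan, water dikinase that opens starch for breakdown, was at 16423, 21828 and 19110 against 33268, 32780 and 35462 (log2 fold change 0.83, SE 0.14, adjusted p = 0.0148; with Phase 0 replicate 3 left out, 0.0858). ISA3, PWD and SEX4, a debranching enzyme, a second dikinase and a glucan phosphatase, rose by 0.75, 0.60 and 0.58 (adjusted p = 0.0447, 0.0319 and 0.0243, and 0.163, 0.144 and 0.122 without Phase 0 replicate 3). The count of 4 was 0 without Control replicate 3. Among 17 trehalose phosphate genes TPPJ and TPPG rose by 1.16 and 1.11 (adjusted p = 0.021 and 0.0163) and TPS5 by 0.70, while ATTPPA fell by 1.57 and TPPH fell by 1.23 on the log2 scale, both also phosphatases (adjusted p = 0.0023 and 0.0145). Of these only the call of ATTPPA, at 345, 487 and 469 against 127, 150 and 156, held, and the count of 5 was 1 without Phase 0 replicate 3. SWEET2, a vacuolar sugar carrier, fell from 382, 313 and 408 to 148, 144 and 169 (log2 fold change -1.25, adjusted p = 0.00563), and its call held.

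Photosynthesis genes had small differences, with 1 passing, and how many lay below 0 depended on the scaling. Of 45 tested photosystem and light-harvesting genes 44 had a log2 fold change below 0 as deposited and 30 after quantile normalisation, and 37 did not overlap between groups, which compares with 23.2% of all genes not overlapping, but only PETE1 (plastocyanin) passed, at 8035, 6530 and 7316 against 4823, 4564 and 4537 (log2 fold change -0.65, adjusted p = 0.0128; 0.0815 once Phase 0 replicate 3 was dropped). CAB1, the most abundant of them, was at 608656, 518147 and 515326 against 449328, 413938 and 386747 (log2 fold change -0.39, adjusted p = 0.243). The summed level of the list was 4585738 to 5209893 in control and 3618340 to 3803614 in Phase 0. The median was -0.34 as deposited, -0.25 after rescaling to nuclear totals and -0.13 after quantile normalisation. The CAB genes CAB1, CAB2 and CAB3 are near-identical copies, and their individual values are uncertain. None of 18 Rubisco and Calvin cycle genes (median -0.12) and none of 18 chlorophyll synthesis genes (median -0.29) passed in limma, with 1 and 7 at an unadjusted p under 0.05.

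Some defence and stress genes spread with single libraries. All 24 tested jasmonate genes and 14 of 16 salicylate and defence genes had a log2 fold change above 0 as deposited. After quantile normalisation 1 and 3 members of these lists lay below 0. The median over all genes was 0.01 as deposited. No member passed among 24 jasmonate genes (median 0.47) and 16 salicylate and defence genes (median 0.59), with 4 in each at an unadjusted p under 0.05 in limma, while of 23 tested cysteine-rich receptor-like kinases 4 rose (CRK6, CRK14, CRK11 and CRK15), with a median of 0.83. CRK6 was at 1698, 974 and 882 against 2917, 5983 and 4911 (log2 fold change 1.96, SE 0.36, adjusted p = 0.021; with Phase 0 replicate 3 left out, 0.105), and the count of 4 was 0 without Control replicate 3. STZ (ZAT10), a rapidly induced zinc finger, was at 1201, 320 and 92 against 189, 219 and 267, and CML41, a calmodulin-like gene, at 1286, 47 and 41 against 71, 352 and 51. In both, Control replicate 1 was the highest of the 6 libraries. VSP2, a jasmonate-induced storage protein, was at 155, 2179 and 206 against 781, 1482 and 1754, with Control replicate 2 the highest.

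Of the remaining abundant transcripts, the largest gains were in AT1G35710, a leucine-rich repeat kinase, at 11706, 14084 and 10346 against 25257, 34984 and 28035, UBQ3, a polyubiquitin gene, and THIC, which makes the pyrimidine part of thiamine. UBQ3 rose by 0.94 and its call held (adjusted p = 0.00449), whereas AT1G35710 and THIC, with adjusted p = 0.013 and 0.032, reached 0.0642 and 0.143 without Phase 0 replicate 3. The largest losses were in AT2G10940 and AT2G45180, of the lipid transfer protein superfamily, PCAP1, a calcium-binding protein of the plasma membrane, and MTO3, an S-adenosylmethionine synthetase. AT2G45180 fell from 19784, 15261 and 15657 to 4352, 4460 and 3309 (log2 fold change -2.07, SE 0.33, adjusted p = 0.0103; 0.062 once Phase 0 replicate 3 was dropped). MTO3 fell from 10306, 9263 and 9778 to 4661, 4649 and 4133 (log2 fold change -1.13, SE 0.11, adjusted p = 0.00129) and PCAP1 from 9453, 7024 and 7603 to 2661, 3089 and 2050 (log2 fold change -1.63, SE 0.24, adjusted p = 0.00677), and both of these calls held. AT2G10940, at 19104, 38713 and 35079 against 13051, 8764 and 12266, had its lowest control in replicate 1 (adjusted p = 0.0356; with Phase 0 replicate 2 left out, 0.148).

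Further lists gave few calls, and their members stood on both sides of the controls. Of 23 tested genes of cuticular wax and cutin 3 rose and 1 fell: besides WSD1, KCS2, a fatty acid elongase, was at 33, 30 and 30 against 111, 101 and 115 (log2 fold change 1.78, adjusted p = 0.00993), and SHN3, a factor that activates wax and cutin genes, was at 32, 68 and 84 against 168, 145 and 172 (adjusted p = 0.0336). MYB30, also a regulator of long-chain fatty acids, fell from 332, 292 and 345 to 173, 179 and 174 (adjusted p = 0.0256). The highest adjusted p values of KCS2, SHN3 and MYB30 were 0.0588, 0.143 and 0.12, all without Phase 0 replicate 3. Of 25 glucosinolate genes the pair FMO GS-OX2 and FMO GS-OX4 rose, the latter from 165, 197 and 143 to 327, 453 and 448 (log2 fold change 1.27, adjusted p = 0.00797), which became 0.057 with Phase 0 replicate 3 left out. Of 29 CBL sensors and CIPK kinases CIPK5 rose by 0.85 on the log2 scale while CIPK15 fell by 1.36 and CIPK20 fell by 0.64 (adjusted p = 0.0157, 0.0234 and 0.0233), and no call of that list was made without Control replicate 3. CLC-A, which carries nitrate into the vacuole, was the one call among 10 tested anion channels and chloride exchangers. It fell from 1535, 1563 and 1243 to 724, 815 and 604 (log2 fold change -1.02, adjusted p = 0.034, or 0.158 with Phase 0 replicate 3 left out). Of 14 dark and sugar starvation genes DIN10 and BXL1 fell, DIN10 from 361, 477 and 627 to 155, 84 and 114 and BXL1 from 670, 620 and 837 to 279, 352 and 169 (adjusted p = 0.0241 and 0.0236). Their highest adjusted p values were 0.106 without Phase 0 replicate 3 and 0.0999 without Control replicate 3.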

How the data were processed

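Poly(A) RNA was made into stranded libraries and read as single-end reads, per the labels' protocols. The authors deposited 1 score per gene and library, normalised counts rounded to whole numbers, as the file's name and values show. Tools listed in the submitters' processing notes are DESeq2 1.62, featureCounts 1.4.5-p1, Subread, STAR 2.4.0a and FastQC, with the build TAIR10 and no role for any. How strand was counted is not given in the sources used here, so overlapping and antisense genes are uncertain. Because the values are not raw counts, no count model was used.

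A linear model with 3 groups of 3 libraries was fitted with limma 3.58.1 (R 4.3.3, trended prior variance) to log2(value + 1) of genes whose mean reached 10. Log2 fold changes on this scale understate changes of low genes. Benjamini-Hochberg adjustment ran over 18650 genes. The fit was tested on simulated data. Reads per library came from the spacing of values up to 120, fitted as whole reads times a constant.

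Members and the 68 gene lists (1094 loci, 999 in the table, 941 tested) were chosen with earlier results of these data known. Named were the 20 largest rises and 20 largest falls with a symbol, adjusted p under 0.05, no overlap, and 100 or more as the mean of the higher group. The 8 largest rises and falls in level and up to 4 called members per list were added, and other members where their list is described. Not every gene so named is printed. Further called members (ABI1, ABI2, HAB2, XTH9 and others), the motifs and families by product were chosen after values were seen. Symbols and upstream bases came from RefSeq TAIR10.1 by locus (18560 of the genes tested matched); no coordinates are given, as the builds differ in name. Python 3.11.15, pandas 2.3.3, numpy 2.4.6 and matplotlib 3.10.9 were used.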

Additional observations from a re-analysis of the deposited data

How the results depend on the processing

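The count of 547 genes lay between 529 and 581 with pseudocounts of 0.5 and 5, no filter, a filter at a mean of 50, TMM factors and quantile normalisation. It was 383 without the trend, 509 with only the 6 libraries and 568 after rescaling to nuclear totals without organelle genes, with 432 of the 547 among them. Array weights in their default form, which did not converge, gave 8362 calls, and weights estimated gene by gene, an alternative chosen after seeing that count, 2645; for changes of at least 1 the counts were 1296 and 868 against 318. An adjusted p under 0.01 left 124 and 105. With 1 of the 9 libraries left out the counts ran from 118 to 885, and from 106 to 407 for changes of at least 1. With Control replicate 1 and Phase 0 replicate 2 both left out they were 213 and 166. The causes were not tested. No called gene changed direction in any fit. The replicates of all 547 did not overlap, so leaving out a library could not reverse a direction, and those fits do not test it. Same-numbered control and Phase 0 libraries did not deviate together (correlations -0.179, -0.0829 and -0.00365), so the numbers were not taken as pairs; with the replicate block 372 and 256 genes were called. Of 129 named genes 40 were called whichever library was left out. Genes at a few reads, such as HAI1 in Control replicate 2 or XTH33 in Phase 0, are limited by depth.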

Other observations

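Families beyond the lists were noticed by the product names of called genes, so their counts are descriptions chosen after values were seen. Over all genes tested, 1.28% rose and 1.66% fell. Of 5 tested genes with a DUF1005 domain, of unknown function, 4 fell: AT1G50040 fell by 3.10, AT1G10020 fell by 2.59, AT3G19680 fell by 2.16 and AT4G29310 fell by 1.58 on the log2 scale. Of 48 SAUR-like genes, small auxin-induced growth genes, 7 fell (14.6%) and none rose. Both tested poly(ADP-ribose) glycohydrolases, which remove ADP-ribose chains, rose: PARG2 by 1.2 and TEJ by 0.68 on the log2 scale (adjusted p = 0.0348 and 0.0341, and 0.16 and 0.143 without Phase 0 replicate 3). HVA22D and HVA22E, ABA-induced membrane proteins, rose by 1.36 and 0.93, as 2 of 9 HVA22 genes (22.2%). AT1G71000, a DnaJ-domain chaperone, was at 46, 19 and 11 in control and 260, 312 and 406 in Phase 0 (log2 fold change 3.84, adjusted p = 0.00387). AT1G70640, with a PB1 domain, was at 75, 69 and 41 against 658, 514 and 733 (log2 fold change 3.37, adjusted p = 0.0022). Of 110 tested DnaJ genes 3 rose (2.73%), and of 26 with a PB1 domain 2 rose (7.69%).

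Of 308 genes annotated as ribosomal proteins 2 fell (0.649%) and none rose, beside 1.66% and 1.28% of all genes tested. Genes with 1 exon in every annotated transcript made up 31.7% of those that fell (98 of 309), 12.2% of those that rose (29 of 237) and 12.3% of all tested (2242 of 18209). Of 90 organelle-encoded genes tested none passed in limma, while 21 had an unadjusted p under 0.05.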
